A study of Homo sapiens with 2 samples.

Results

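The genes described here are 10 human m6A readers outside the IGF2BP family: YTHDF1, YTHDF2, YTHDF3, YTHDC1, YTHDC2, HNRNPA2B1, HNRNPC, RBMX, FMR1 and ELAVL1. They were chosen by gene symbol, with earlier results of these data known. All 10 were found once each among the 28038 genes listed in the deposited count table. All 10 passed a minimum of 50 counts over both libraries, as did 14157 of the listed genes. Poly(A) RNA was sequenced from 1 library of OVCAR-3 cells made to overexpress IGF2BP3 and 1 library of OVCAR-3 cells that carried a blank viral vector as the control. OVCAR-3 is an established line of human ovarian carcinoma. The sources used here do not give the type of virus or its promoter. With 1 library per group there is no replicate error and no test, and every difference below is between these 2 libraries.

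N6-methyladenosine (m6A) is a methyl mark on internal adenosines of messenger RNA. Writer enzymes place it, eraser enzymes remove it, and reader proteins bind RNA that carries it. The YTH proteins hold the modified base in an aromatic pocket of their YTH domain. YTHDF1, YTHDF2 and YTHDF3 are cytoplasmic and are linked to translation and decay of marked transcripts, YTHDC1 is nuclear and is linked to splicing and export, and YTHDC2 is a helicase best known from germ cells. HNRNPA2B1, HNRNPC and RBMX are abundant nuclear RNA-binding proteins, and part of their m6A dependence comes from the change in RNA folding around the mark. FMR1, the protein lost in fragile X syndrome, and ELAVL1, which binds AU-rich elements, have also been described as m6A readers. IGF2BP3 belongs to the IGF2BP family of readers, which are linked to transcript stability and favour a TGGAC-like context in the letters of the gene.

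That context is present in all 10 reader transcripts, so the sequences below show how it looks in the YTH genes. In the APPRIS principal transcript of each gene (GENCODE release 29, GRCh38), TGGAC was searched on the transcript strand only. It was found 6 times in YTHDF1, YTHDF3 and YTHDC2, 4 times in YTHDF2 and FMR1, 3 times in HNRNPA2B1 and RBMX, and 2 times in YTHDC1, HNRNPC and ELAVL1. The letters occur in 94.4% of the principal transcripts of tested genes, and the median density was 1.06 per kilobase in the readers and 1.15 per kilobase in all 11605 such transcripts. The density per kilobase ran from 0.333 in ELAVL1 to 2.53 in YTHDF3, and 90.8% of the tested transcripts had a lower density than YTHDF3. The match nearest to the stop codon is printed with its surroundings for the 4 YTH genes below, with TGGAC in capitals. All 4 lie in coding sequence, as does the nearest match of YTHDF3, HNRNPA2B1 and HNRNPC. In RBMX, FMR1 and ELAVL1 it lies in the 3′ UTR, 18, 297 and 674 bases past the end of the stop codon.
YTHDF1 (chr20:63202559-63202583, minus strand): aagtcccccgTGGACtacggcacca
YTHDF2 (chr1:28743690-28743714, plus strand): aaatctgctgTGGACtacaacacat
YTHDC1 (chr4:68318722-68318842, minus strand, across 2 exons): taccaggaagTGGACagacgatttt
YTHDC2 (chr5:113592045-113592069, plus strand): ggggctctgcTGGACtaggaggagt
In YTHDF1 and YTHDF2 the match is followed by the same 3 letters, and it lies 311 and 308 bases before the end of the stop codon. YTHDF3 has its nearest match at 308 bases before that end. A match of letters is a description, and no m6A site was measured here.

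The overexpression library held 48017861 counts and the control library 43190215. IGF2BP3 itself had 6376 counts in the overexpression library and 2944 in the control library, or 15.6 and 7.99 FPKM, a ratio of 1.96. Defining markers of the labelled cell type were mostly low: of 12 epithelial markers 9 were listed and 1, KRT18, reached 10 CPM in either library, and of 12 ovarian serous or Mullerian markers 6 were listed and 1, CCNE1, did so. Of 4 mesenchymal markers 3 reached that level, with VIM at 2149 CPM in the overexpression library and 2175 CPM in the control library. CDH1 had 2 counts in each library, and PAX8 had 32 in the overexpression library and 28 in the control library. These markers thus do not by themselves bear out the labelled cell type. A low count in this table need not mean a low transcript level, as set out with YTHDC1 below. That limit does not apply to the 3 mesenchymal markers that reached 10 CPM. What the low marker counts reflect was not tested. The summed level of the listed epithelial markers was 115 CPM in the overexpression library and 118 CPM in the control library, and that of the mesenchymal markers was 2222 CPM in the overexpression library and 2248 CPM in the control library. Even numbers made up 63.3% of the overexpression counts between 1 and 20, and 64.1% of the control ones, as happens where each mate of a pair adds 1 count. Counting intervals are therefore given from the counts as deposited and, where this changes on which side of 1-fold they lie, from counts divided by 2. Intervals of the ratio of 1 gene between the libraries are 95% exact Clopper-Pearson intervals. Intervals for the change in the ratio of 2 genes are 95% intervals of a conditional odds ratio. All of them cover counting error only.

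The readers differed little between the libraries. With overexpression 1 of the 10 (YTHDC2) was at least 1.1-fold higher and none was at least 1.1-fold lower, where 20.4% of all tested genes were at least 1.1-fold higher, 16.8% at least 1.1-fold lower and so 37.2% past the fold in either direction. None was 1.5-fold different in either direction, against 1.66% of all tested genes. The tested genes include genes counted far less deeply than most readers, so these shares are not matched for depth. The same holds for the shares of intervals below. With a count minimum of 200, 18.4% of genes were at least 1.1-fold higher and 14.3% at least 1.1-fold lower. The median log2 ratio of the readers was -0.02, with 4 above 0 and 6 below, beside a median of 0.00 over all tested genes. The counting interval lay above 1-fold in 2 readers (YTHDC2 and YTHDF3) and below it in 4 (YTHDF1, YTHDF2, HNRNPC and RBMX), where 22.8% of all tested genes lay above and 18.6% below. From counts divided by 2 it lay above in 2 readers and below in 3 (YTHDF2, HNRNPC and RBMX), where 15.9% of all tested genes lay above and 10.9% below. The ratios carry the library scaling by TMM, and log2 ratios set the overexpression library over the control library on CPM (counts per 1000000) to which 1 was added. The sides of the intervals were read with TMM scaling only. The upper bounds of YTHDF1 (0.998) and HNRNPA2B1 (1.0006) lie so near 1-fold that their side depends on the scaling. So does the upper bound of RBMX from counts divided by 2 (0.997).

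**Figure D1:**
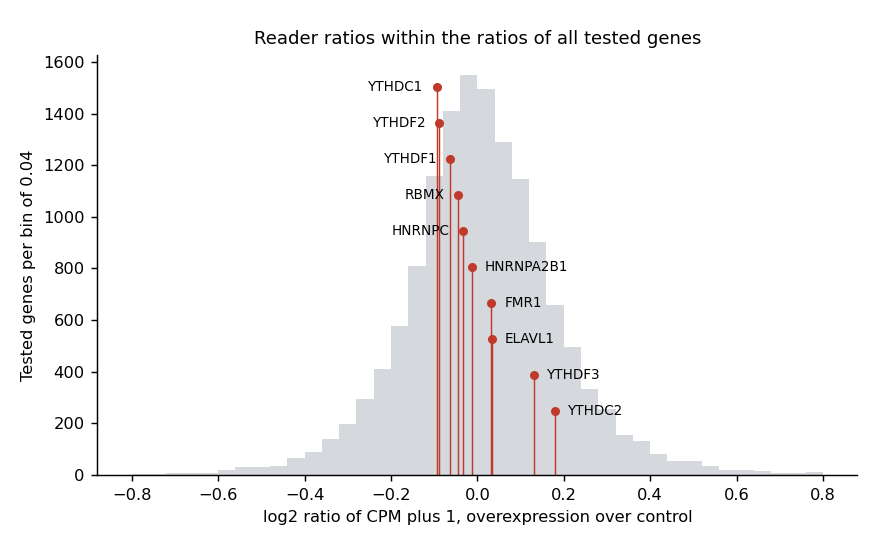
Histogram of the log2 ratios (CPM plus 1; overexpression over control) of all tested genes in bins of 0.04, with 133 genes outside the drawn range of -0.8 to 0.8. Red pins mark the 10 readers, placed at different heights for legibility only; they run from -0.09 (YTHDC1) to 0.18 (YTHDC2), near the centre of the distribution.

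Levels were compared between genes only per length, as the deposited FPKM (counts per kilobase of gene and per 1000000 counted). HNRNPC, which coats nascent transcripts at uridine tracts, was the most abundant reader, at 149 FPKM in the overexpression library and 154 FPKM in the control library. HNRNPA2B1, a regulator of splicing and of microRNA processing, followed at 136 FPKM in the overexpression library and 138 FPKM in the control library. RBMX, the X-linked hnRNP G, stood at 69.2 FPKM in the overexpression library and 71.9 FPKM in the control library. These 3 nuclear proteins exceeded every YTH gene in both libraries.

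Among the YTH genes YTHDF2 was highest, at 41.3 FPKM in the overexpression library and 44.2 FPKM in the control library. YTHDF1 had 29.1 FPKM in the overexpression library and 30.6 FPKM in the control library. ELAVL1 had 28.3 FPKM in the overexpression library and 27.8 FPKM in the control library. These were close to YTHDF3, which had 27.1 FPKM in the overexpression library and 24.9 FPKM in the control library. YTHDC2 had 9.41 FPKM in the overexpression library and 8.35 FPKM in the control library, and FMR1 had 7.75 FPKM in the overexpression library and 7.62 FPKM in the control library.

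YTHDC1 was last, at 1.49 FPKM in the overexpression library and 1.61 FPKM in the control library. The span between HNRNPC and YTHDC1 was 100.4-fold in the overexpression library and 95.7-fold in the control library. The order of the 10 readers by FPKM was the same in both libraries. The low place of YTHDC1 stands beside genes that most cells use and that are listed at or near 0 here: the deadenylase subunit CNOT10 had 2 counts in the overexpression library and 0 in the control library, and the splicing regulator HNRNPL likewise had 2 counts in the overexpression library and 0 in the control library. ABCF1, a translation factor, had 0 counts in the overexpression library and 1 in the control library, and PRRC2A had 26 in the overexpression library and 19 in the control library. A low count in this table therefore need not mean a low transcript level, which also limits the span above and every value of YTHDC1 set beside another reader. What the low count of YTHDC1 reflects was not tested.

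**Figure D2:**
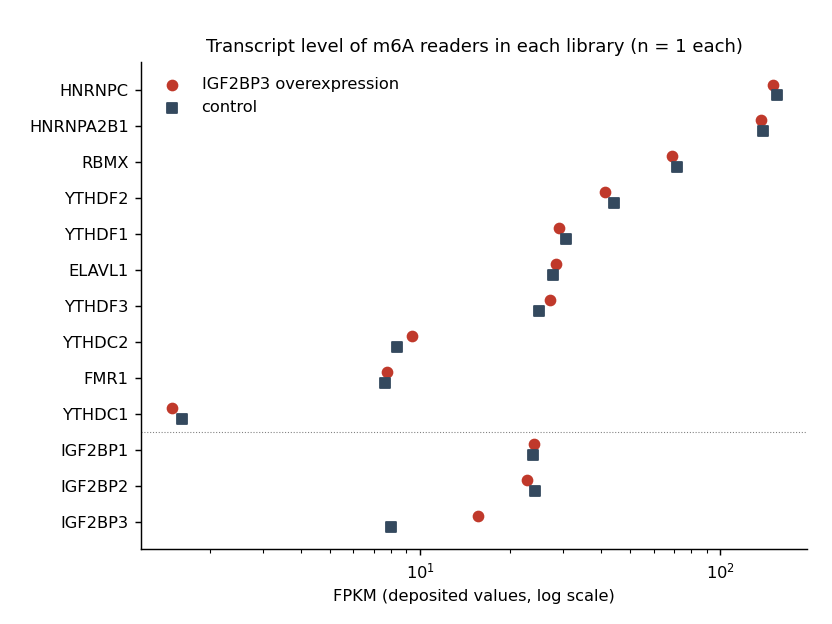
Deposited FPKM (log axis) of the 10 readers, ordered by level, and below the dotted line of the 3 IGF2BP genes; red circles are the overexpression library and dark squares the control library, 1 library each. The paired points nearly coincide for every reader, from 1.49 and 1.61 FPKM for YTHDC1 to 149 and 154 FPKM for HNRNPC, while IGF2BP3 stood at 15.6 and 7.99 FPKM.

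The order rests on the gene lengths behind the deposited FPKM, which are longer than the principal transcript in 9 of the 10 genes. For HNRNPC that length was 7293 bases, where its principal transcript has 1714, and for YTHDF3 it was 6163 bases against 2370. With CPM per kilobase of the principal transcript, a choice made after seeing the data, HNRNPC, HNRNPA2B1 and RBMX were again the top 3, in that order. YTHDF3 then stood above YTHDF2, with 70.8 against 52.8 in the overexpression library and 64.6 against 56.1 in the control library, and YTHDF1 stood below ELAVL1, at 28.3 against 32.8 in the overexpression library and 29.6 against 32.1 in the control library. FMR1 stood above YTHDC2, at 18.6 against 16.1 in the overexpression library and 18.2 against 14.2 in the control library. The principal transcript of YTHDF3 carries a 3′ UTR of 249 bases.

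Within the YTHDF family, YTHDF3 differed in direction from its paralogs. YTHDF3 (ENSG00000185728; GRCh38 chromosome 8, 63168553 to 63212786, plus strand) had 8027 counts in the overexpression library and 6632 in the control library, a ratio of 1.096 (1.06 to 1.13). YTHDF2 (ENSG00000198492; chromosome 1, 28736621 to 28769775, plus strand), which recruits the CCR4-NOT deadenylase to marked transcripts, had 7390 counts in the overexpression library and 7114 in the control library, a ratio of 0.940 (0.910 to 0.972). YTHDF1 (ENSG00000149658; chromosome 20, 63195429 to 63216234, minus strand), linked to translation of marked transcripts, had 4474 counts in the overexpression library and 4232 in the control library, a ratio of 0.957 (0.917 to 0.998, or 0.901 to 1.02 from counts divided by 2). YTHDF3 was thus the higher one of the 3 relative to control, by less than 1.1-fold on the scale of CPM plus 1.

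Ratios of 2 genes within a library do not depend on how the libraries are scaled, but they carry the length and GC trend described below. With that trend removed the log2 ratio was 0.07 for YTHDF3, -0.09 for YTHDF2 and -0.04 for YTHDF1, in place of 0.13, -0.09 and -0.06. The changes of YTHDF3 against both paralogs are then smaller than those given here, and no interval was computed for them. YTHDF3 was at 0.657 times the FPKM of YTHDF2 in the overexpression library and at 0.564 times in the control library, a change of 1.17-fold with a counting interval of 1.11 to 1.22. Against YTHDF1, YTHDF3 was at 0.933 times in the overexpression library and at 0.815 times in the control library, a change of 1.14-fold (1.09 to 1.21). YTHDF1 and YTHDF2 kept nearly the same proportion, 0.704 in the overexpression library and 0.692 in the control library, a change of 1.02-fold whose interval of 0.965 to 1.07 spans 1-fold. YTHDF3 made up 27.8% of the summed YTHDF FPKM in the overexpression library and 25.0% in the control library, and YTHDF2 made up 42.3% in the overexpression library and 44.3% in the control library. The summed FPKM of the family was 97.5 in the overexpression library and 99.6 in the control library.

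**Figure D3:**
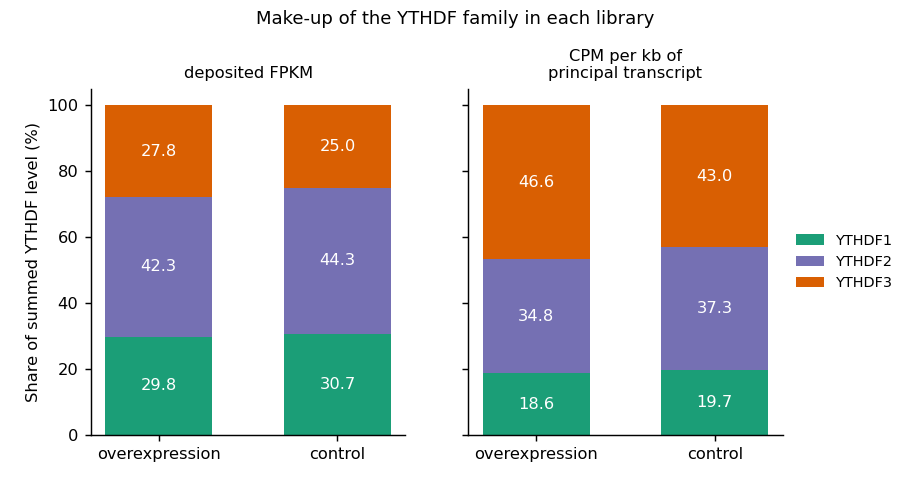
Share (%) of YTHDF1, YTHDF2 and YTHDF3 in the summed level of the family, with the overexpression library left and the control library right of each panel; the left panel uses deposited FPKM and the right panel CPM per kilobase of the principal transcript. The share of YTHDF3 is larger in the overexpression library in both panels, at 27.8% against 25.0% and at 46.6% against 43.0%, while the order of YTHDF3 and YTHDF2 depends on the length used.

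By log2 ratio the YTHDC genes lay at opposite ends of the readers, but the interval of YTHDC1 overlaps those of most other readers. With the length and GC trend described below removed, YTHDF3 stood at 0.068 and YTHDC2 at 0.061 on the log2 scale. YTHDC2 (ENSG00000047188; chromosome 5, 113513683 to 113595285, plus strand) had 4882 counts in the overexpression library and 3899 in the control library, a ratio of 1.13 (1.09 to 1.18) and a log2 ratio of 0.18. Of all tested genes, 26.3% were at least as far from 0. YTHDC1 (ENSG00000083896; chromosome 4, 68310387 to 68350089, minus strand) had 503 counts in the overexpression library and 489 in the control library, a ratio of 0.931 whose interval of 0.821 to 1.06 spans 1-fold. At this depth no difference of YTHDC1 was detectable. YTHDC2 was at 6.32 times the FPKM of YTHDC1 in the overexpression library and at 5.19 times in the control library, a change of 1.22-fold (1.06 to 1.39, or 1.002 to 1.47 from counts divided by 2).

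The nuclear hnRNP readers were counted most deeply and had the narrowest intervals. HNRNPC (ENSG00000092199; chromosome 14, 21209136 to 21269494, minus strand) had 52348 counts in the overexpression library and 48533 in the control library, a ratio of 0.976 (0.964 to 0.989). RBMX (ENSG00000147274; chromosome X, 136848004 to 136880764, minus strand) had 19547 counts in the overexpression library and 18268 in the control library, a ratio of 0.969 (0.949 to 0.988). HNRNPA2B1 (ENSG00000122566; chromosome 7, 26173057 to 26201529, minus strand) had 82555 counts in the overexpression library and 75428 in the control library, a ratio of 0.991 whose interval of 0.981 to 1.0006 reaches just past 1-fold. Its annotated span overlaps CBX3 by 368 bases and NFE2L3 by 14069 bases on the other strand. CBX3 had 26496 counts in the overexpression library and 24715 in the control library, and NFE2L3 had 622 in the overexpression library and 602 in the control library. The sources used here do not say whether counting used the strand.

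FMR1 and ELAVL1 were nearly level. FMR1 (ENSG00000102081; chromosome X, 147911951 to 147951125, plus strand) had 3829 counts in the overexpression library and 3388 in the control library, a ratio of 1.02 (0.977 to 1.07). ELAVL1 (ENSG00000066044; chromosome 19, 7958579 to 8005659, minus strand) had 9454 counts in the overexpression library and 8361 in the control library, a ratio of 1.02 (0.994 to 1.05). Both intervals span 1-fold. ELAVL1 has a long 3′ UTR of 4904 bases with 13 copies of ATTTA, the core letters of the AU-rich element that its protein binds, and 91.4% of the tested principal transcripts held fewer. Of the 10 readers 9 had at least 1 copy and YTHDF2 had 0; 70.4% of the tested principal transcripts had at least 1.

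**Figure D4:**
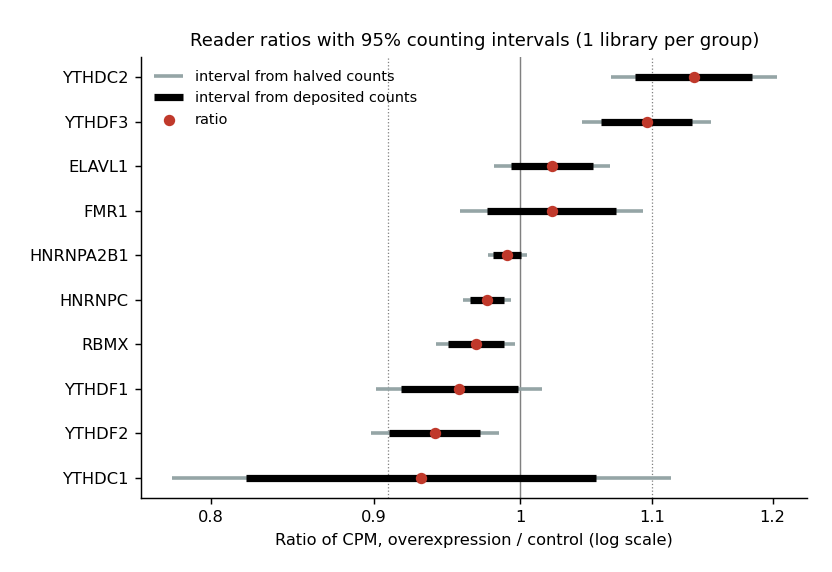
Ratio of CPM, overexpression over control, for the 10 readers on a log axis; black bars are 95% counting intervals from deposited counts, grey bars those from counts divided by 2, and dotted lines mark 1.1-fold in each direction. YTHDC2 (1.13) and YTHDF3 (1.096) lie above 1 with their whole intervals, and the widest interval belongs to YTHDC1, which had the fewest counts.

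Some readers share sequence with other genes, so their counts may be split or pooled in ways the table does not show. Of the distinct 31-base words in the annotated transcripts of a reader, 28.7% also occurred in another gene for RBMX, 15.1% for YTHDF2, 11.8% for ELAVL1 and 9.35% for HNRNPC, and the other 6 readers were between 0.0303% and 3.58%. The coding sequence of RBMX aligned to its retrogene RBMXL1 over 1173 bases with 97.3% identity, and that of HNRNPC to the processed pseudogene HNRNPCP2 over 878 bases with 98.9% identity. The first 90 coding bases of both pairs show how few letters tell the copies apart, with the 1 base that differs in capitals.
RBMX (chrX:136879338-136879427, minus strand, coding): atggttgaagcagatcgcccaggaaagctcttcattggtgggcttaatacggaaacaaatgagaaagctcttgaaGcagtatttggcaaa
RBMXL1 (chr1:88983737-88983826, minus strand): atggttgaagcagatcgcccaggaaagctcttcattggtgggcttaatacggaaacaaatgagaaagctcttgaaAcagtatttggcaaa
HNRNPC (chr14:21234104-21234193, minus strand, coding): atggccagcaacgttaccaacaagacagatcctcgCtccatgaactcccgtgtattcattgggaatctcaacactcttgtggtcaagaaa
HNRNPCP2 (chr2:189923336-189923425, plus strand): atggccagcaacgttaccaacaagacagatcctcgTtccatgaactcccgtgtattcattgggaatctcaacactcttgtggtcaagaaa
RBMXL1 had 3080 counts in the overexpression library and 2431 in the control library, a ratio of 1.15 (1.09 to 1.21), and its FPKM was 0.182 times that of RBMX in the overexpression library and 0.154 times in the control library. HNRNPCP2 had 542 counts in the overexpression library and 480 in the control library. YTHDF2P1, a processed pseudogene of YTHDF2, had 12 in the overexpression library and 14 in the control library, and RBMXP2, one of RBMX, had 77 in the overexpression library and 82 in the control library. HNRNPCP3, HNRNPCP4, HNRNPCP6, AL034397.1, SNORD61 and AC010336.6 also share words with a reader but are not among the genes listed in the count table. The intronic RNA FMR1-IT1 in FMR1 had 19 counts in the overexpression library and 11 in the control library, and RAB28P5, which overlaps RBMX on the other strand, had 0 in the overexpression library and 1 in the control library. The values of RBMX and RBMXL1 in particular are uncertain.

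Ratios in these libraries moved with gene length and base composition. Over 13810 tested genes with both measures, Spearman's rho with the log2 ratio was 0.19 for length and -0.28 for GC content; genes are not independent replicates. The median log2 ratio was 0.05 in the longest and -0.03 in the shortest of 4 equal bins of genes by length. YTHDC2 has the second longest gene length of the readers, 10805 bases, and a principal transcript with 40.1% GC. With a trend in both removed, the log2 ratio was 0.06 for YTHDC2, which was then no longer 1.1-fold higher, and 0.07 for YTHDF3. YTHDC1 then stood at -0.16 and was the 1 reader at least 1.1-fold lower. No interval was computed for that value, and the interval of YTHDC1 before the removal, 0.821 to 1.06, spans 1-fold. FMR1 went below 0, at -0.07 in place of 0.03. HNRNPA2B1 stood at -0.11, HNRNPC at -0.08 and RBMX at -0.09. The part of length and GC in the ratios of the readers was not tested further.

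Set against the IGF2BP family, the 10 readers held the larger pool of transcript. Their summed FPKM was 499.4 in the overexpression library and 509 in the control library, and that of IGF2BP1, IGF2BP2 and IGF2BP3 was 62.2 in the overexpression library and 55.8 in the control library. IGF2BP1 had 11037 counts in the overexpression library and 9851 in the control library, a log2 ratio of 0.02. IGF2BP2 had 5832 counts in the overexpression library and 5553 in the control library, a log2 ratio of -0.07. IGF2BP3 made up 25.0% of the family's FPKM in the overexpression library and 14.3% in the control library. Of the summed FPKM of all 13 readers, IGF2BP3 made up 2.77% in the overexpression library and 1.41% in the control library. These shares depend on the length used. With CPM per kilobase of the principal transcript, IGF2BP3 made up 34.0% of the family in the overexpression library and 20.4% in the control library. Of all 13 readers it then made up 1.90% in the overexpression library and 0.965% in the control library.

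In the related lists below, counts past 1.1-fold stand beside the shares of all tested genes given above, 20.4% higher and 16.8% lower. Of 12 m6A writer genes, 2 were at least 1.1-fold higher and 1 at least 1.1-fold lower, with a median log2 ratio of -0.02. RBM15, an adaptor of the writer complex, had a ratio of 1.19 (1.12 to 1.27), and ZC3H13, which anchors that complex in the nucleus, at 1.14 (1.09 to 1.20). With the length and GC trend removed RBM15 was the 1 writer at least 1.1-fold higher, and ZC3H13 stood at 0.11 on the log2 scale. Neither eraser differed by 1.1-fold: FTO was at 1.01 (0.951 to 1.07) and ALKBH5 at 0.982 (0.941 to 1.02).

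Partners of the cytoplasmic readers differed in direction among themselves. Of 10 chosen CCR4-NOT subunits 9 passed the count minimum, 3 were at least 1.1-fold higher and none at least 1.1-fold lower, with a median log2 ratio of 0.08; with the length and GC trend removed 1, CNOT8, was 1.1-fold higher. The deadenylase CNOT6L had a ratio of 1.16 (1.11 to 1.21) and its paralog CNOT6 at 1.12 (1.07 to 1.18). Of the 10 genes of the RNase P/MRP and decay route none was at least 1.1-fold higher and 2 were at least 1.1-fold lower, RPP25 at 0.861 (0.815 to 0.910) and RPP40 at 0.869 (0.799 to 0.946). In this list 3 were at least 1.1-fold lower with the trend removed, and 3 with scaling by library totals. Of 12 measured eIF3 subunits 1 was at least 1.1-fold higher, EIF3C at 1.14 (1.08 to 1.22), and 1 at least 1.1-fold lower, EIF3G at 0.902 (0.872 to 0.932), with a median log2 ratio of -0.06. With the trend removed EIF3G stood at -0.10 on the log2 scale, and 3 other eIF3 subunits were at least 1.1-fold lower.

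Among partners of the YTHDC proteins, the exonuclease XRN1, a partner of YTHDC2, had a ratio of 1.19 (1.14 to 1.26), and MEIOC, a germ cell partner, had 106 counts in the overexpression library and 103 in the control library, a ratio of 0.932 (0.704 to 1.23). Of 6 splicing and export partners of YTHDC1, 1 was at least 1.1-fold lower: the export receptor NXF1, at 0.902 (0.858 to 0.948). SRSF7 was at 0.927 (0.903 to 0.951). With the trend removed XRN1 stood at 0.13 and NXF1 at -0.14 on the log2 scale, both just short of 1.1-fold, while MEIOC, at -0.16, and SRSF7, at -0.15, were past it. The microprocessor genes DROSHA and DGCR8 were at 1.00 (0.966 to 1.04) and 0.934 (0.877 to 0.995, or 0.854 to 1.02 from counts divided by 2).

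Of 21 other hnRNP genes that passed the count minimum, 3 were at least 1.1-fold lower and none at least 1.1-fold higher. On the log2 scale 18 lay below 0, with a median of -0.04, where 6916 of the 14157 tested genes lay below 0; with scaling by library totals 19 did, and with DESeq2 size factors 17. With the trend removed 5 were at least 1.1-fold lower. HNRNPH1, a splicing regulator that binds G-rich runs, was furthest out, with 3263 counts in the overexpression library and 4138 in the control library, a ratio of 0.714 (0.682 to 0.748), and PCBP2 was at 0.871 (0.842 to 0.900). Among FMR1 paralogs and partners, CYFIP1, which binds the FMR1 protein, was the 1 gene of these lists besides IGF2BP3 that differed at least 1.5-fold. It had 482 counts in the overexpression library and 743 in the control library, a ratio of 0.587 (0.523 to 0.659), and its paralog CYFIP2 was at 0.862 (0.777 to 0.956). FXR1 was at 1.43 times the FPKM of FXR2 in the overexpression library and at 1.24 times in the control library, a change of 1.15-fold (1.095 to 1.20). Their log2 ratios were 0.12 for FXR1 and -0.08 for FXR2, and 0.01 and -0.05 with the trend removed, so the change is then smaller. Of 9 other genes whose proteins are reported to read m6A or to be repelled by it, 7 passed the minimum and 1 was at least 1.1-fold higher, the stress granule protein G3BP2 at 1.13 (1.11 to 1.16), before its paralog G3BP1 at 1.098 (1.08 to 1.12). With the trend removed G3BP2 stood at 0.09 on the log2 scale and none of the genes with a value was 1.1-fold higher. For 1 of the 7 there was no value with the trend removed. With DESeq2 size factors 2 of the 7 were at least 1.1-fold higher.

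**Figure D5:**
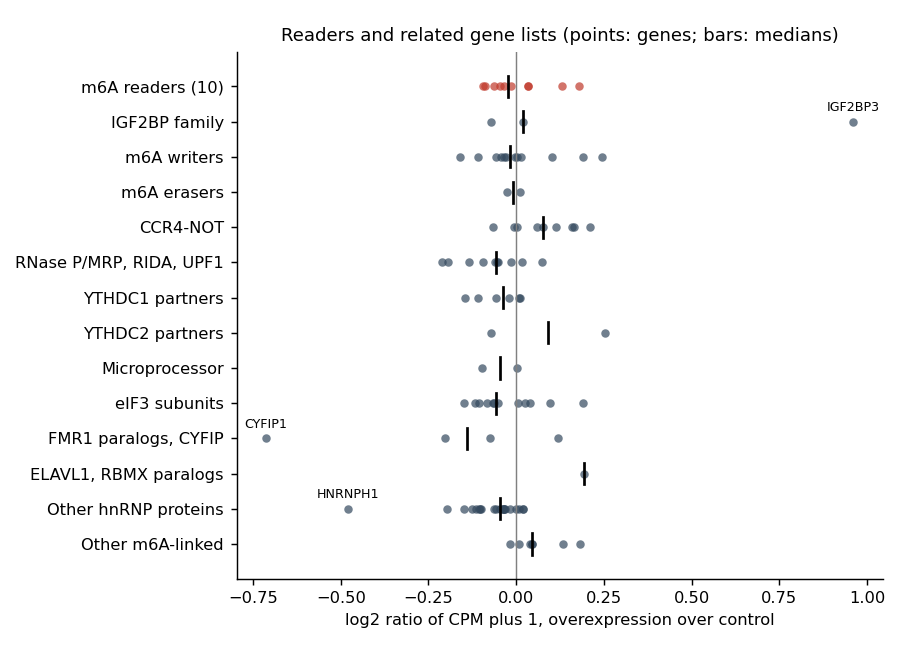
Log2 ratios (CPM plus 1; overexpression over control) of each measured gene (points) of the readers (red) and of related lists (dark), with the median of each list as a black bar. The 10 readers lie between -0.09 and 0.18; IGF2BP3 (0.96), CYFIP1 (-0.71) and HNRNPH1 (-0.48) lie furthest from 0.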

How the data were processed

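Per the file headers, the deposited table holds whole-number counts and FPKM per gene for both libraries. Dividing counts by FPKM gave gene lengths within 0.01 of a whole number in 99.99% of values. The authors also deposited a log2 fold change, per the file headers, which was not used for the values here. Per the labels' protocols, libraries were poly(A)-captured, marked with dUTP and amplified by PCR, with no molecular identifiers described. Per the submitters' processing notes the genome build was GRCh38. The aligner, the counter and its annotation were not given in the sources used here.

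Counts were scaled by TMM (edgeR 4.0.16, R 4.3.3) to CPM, and log2 ratios used a pseudocount of 1 CPM over genes with at least 50 counts in both libraries together. Exact 95% intervals and within-library gene ratios used scipy 1.17.1. The method was tested on simulated data, with Poisson counts and 1.5-fold changes. Those counts lack the excess of even numbers seen here, so the coverage of the intervals in these libraries was not tested. The members, gene lists and the 1.1-fold rule were chosen with earlier results of these data known. Of each list the 2 measured genes furthest from 0, and any at least 1.5-fold different, are named, as are the IGF2BP genes and annotated genes that overlap a reader or share at least 20% of their 31-base words with it; FXR1, FXR2, CNOT8, CNOT10, HNRNPL, ABCF1, PRRC2A and 5 cell type markers are named outside that rule, after their values were seen. Positions, transcripts and 31-base words came from GENCODE release 29. Alternatives were other scalings (library totals, DESeq2 1.42.0), pseudocounts, count minimums, FPKM and counts divided by 2.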

Additional observations from a re-analysis of the deposited data

How the results depend on the processing

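The direction of the log2 ratio was the same for 9 of the 10 readers under other scalings, pseudocounts, FPKM plus 1 and removal of the length and GC trend, the last an alternative chosen after seeing the data; FMR1 changed sign under that removal alone. YTHDC2 ranged from 0.06 to 0.18 on the log2 scale, YTHDF3 from 0.07 to 0.14 and YTHDC1 from -0.16 to -0.07. With the trend removed 0 readers were at least 1.1-fold higher and 1 was at least 1.1-fold lower, against 1 and 0. The share of all tested genes at least 1.1-fold higher was 12.9% with a pseudocount of 5 CPM or with FPKM plus 1, and the share at least 1.1-fold lower was 8.82% with a pseudocount of 5 CPM; a larger constant pulls low genes towards 1-fold by construction. The share of HNRNPA2B1 in the summed level of the 10 readers, overexpression minus control, was 0.119 percentage points by FPKM and -0.000599 by counts not divided by length. The other 16 values that moved concern single genes. Counts of 503 and 489 limit what can be said of YTHDC1. No paired analysis was possible because each group has 1 library.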
